A study of Bos taurus with 9 samples.

Results

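The genes described here build the route by which a cell makes and ships secreted and membrane proteins. They encode the signal recognition particle (SRP), the SEC61 channel and the TRAP complex of the endoplasmic reticulum (ER), the signal peptidase, the oligosaccharyltransferase, the ER chaperones and protein disulfide isomerases, and the COPII, COPI, p24 and KDEL receptor parts of vesicle transport. They were chosen by symbol from the readable rows of the study's list of abundant rectal transcripts, either by a family prefix or by name, and their Ensembl identifiers were looked up in the deposited table. The choice gave 45 genes of the 24616 in the table. All 45 had a row and passed the filter on low values, which 15410 genes passed. Of the 45, 44 act in secretion. The remaining one, SSRP1, shares a prefix with the TRAP subunits but encodes a nuclear histone chaperone subunit. It is described apart below, but counts, sums and medians over the 45 include it. Since that list runs in falling order of abundance, poorly expressed relatives of these genes are not among the 45.

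The study compared steers with a high fecal count of E. coli O157 (super-shedders, SS) with pen-mates that tested negative for it (non-shedders, NS). All were British x Continental feedlot steers on a barley-grain finishing diet, and no agent was given to either group. RNA was sequenced from whole rectal tissue taken close to the rectal-anal junction at slaughter, with 1 library for each of 4 NS (steers 108, 152, 165 and 242) and 5 SS (steers 274, 287, 294, 299 and 310). Only SS 310 had such a count on record at slaughter. The other SS were recorded as positive a day earlier, so the group is one of recent super-shedders.

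A cell that secretes in bulk, such as the goblet cell that fills the gut surface with mucus or the plasma cell that exports antibody, carries a large ER and needs much of this machinery. SRP meets a signal peptide as it leaves the ribosome and brings it to the SEC61 channel. Inside the ER the signal peptide is clipped off, glycans are added, and chaperones such as HSPA5 (BiP) and the disulfide isomerases fold the chain. COPII coats then carry cargo to the Golgi, and COPI coats with KDEL receptors bring escaped ER residents back. AGR2, an ER disulfide isomerase family member made by goblet cells and other gut epithelium, and JCHAIN, the joining chain of polymeric IgA and IgM made by plasma cells, were used as reference rows.

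Values are CPM, a gene's reads scaled to a common library total, and reads on genes ranged from 5412523 in SS 274 to 12278503 in NS 108. A count of 0 in the shallowest library would allow up to 0.554 CPM, far below the level of any of these genes. Values below are given in the order NS 108, 152, 165 and 242, then SS 274, 287, 294, 299 and 310. Transcript lengths were not used, so levels are compared between steers and not between genes. Intervals cover the spread between these steers, and levels are relative to the total of each library.

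The tissue pieces were not alike. Over 11 colonic epithelium markers (EPCAM, CDH1, keratins and others), the summed level was 810.5 to 7476 CPM in the NS and 78.1 to 8741 CPM in the SS, lowest in SS 294 and then in NS 242. Goblet cell markers (5 of 8 listed could be named, AGR2 among them) ranged from 1101 to 15830 CPM in the NS and from 94.1 to 15670 CPM in the SS. Plasma cell markers (3 of 6 named) lay at 1506 to 3530 CPM in the NS and 206 to 5470 CPM in the SS, lowest in SS 294 and SS 274. The 10 fibroblast markers summed to 27560 CPM in SS 274 and 19500 CPM in SS 294 but to 2398 to 8584 CPM in the other 7 steers. The 10 smooth muscle markers ran from 461 CPM in SS 274 to 56030 CPM in SS 294. The 6 leukocyte markers reached 3508 CPM in NS 242 against 197 to 911 CPM elsewhere. No named marker was at 0 in any library, though this does not show how much of each tissue layer a piece held. In whole tissue, fewer cells of a type and less RNA per cell cannot be told apart, and with AGR2 as the reference, goblet cells and absorptive epithelium cannot be told apart either. The part of this makeup in the results below was not tested beyond the fits described.

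AGR2 itself was at 4133, 3818, 3348 and 395 CPM in the NS and at 144, 5738, 30.2, 832 and 5129 CPM in the SS, a range of 190-fold. JCHAIN was at 2506, 3061, 2944 and 1169 CPM in the NS and at 59.3, 4992, 86.9, 4705 and 4021 CPM in the SS. SS 274 and SS 294 held the least of both, and on JCHAIN they formed a cluster of their own, with a gap of 3.74 log2 units to the next steer where no other gap exceeded 1.10. On AGR2 the largest gaps were 2.23 and 2.01 log2 units, with NS 242 and SS 299 between the low and high ends. Neither reference row differed between the groups beyond their spread (exact permutation p = 0.389 for AGR2 and 0.444 for JCHAIN, n = 4 and 5, two-sided).

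The level of these genes varied from steer to steer. The summed level of the 45 genes was 10990, 10100, 9014 and 6965 CPM in the NS and 5846, 11070, 5183, 7936 and 12430 CPM in the SS. SS 310, SS 287 and NS 108 thus stood at the top and SS 294 and SS 274 at the bottom. SS 294 had the lowest value of 30 of the 45 genes, where it had the lowest value of 29.7% of all genes tested, and SS 274 that of 7, against 17.1% of all genes. SS 310 had the highest value of 22 and SS 287 that of 6, where they had the highest of 10.2% and 8.29% of all genes. In 30 of the 45 genes the lowest 2 libraries were SS 294 and SS 274, against 20% of all genes tested. Among the NS, NS 242 was lowest in 38 of the 45 genes, against 30.9% of all genes.

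**Figure D1:**
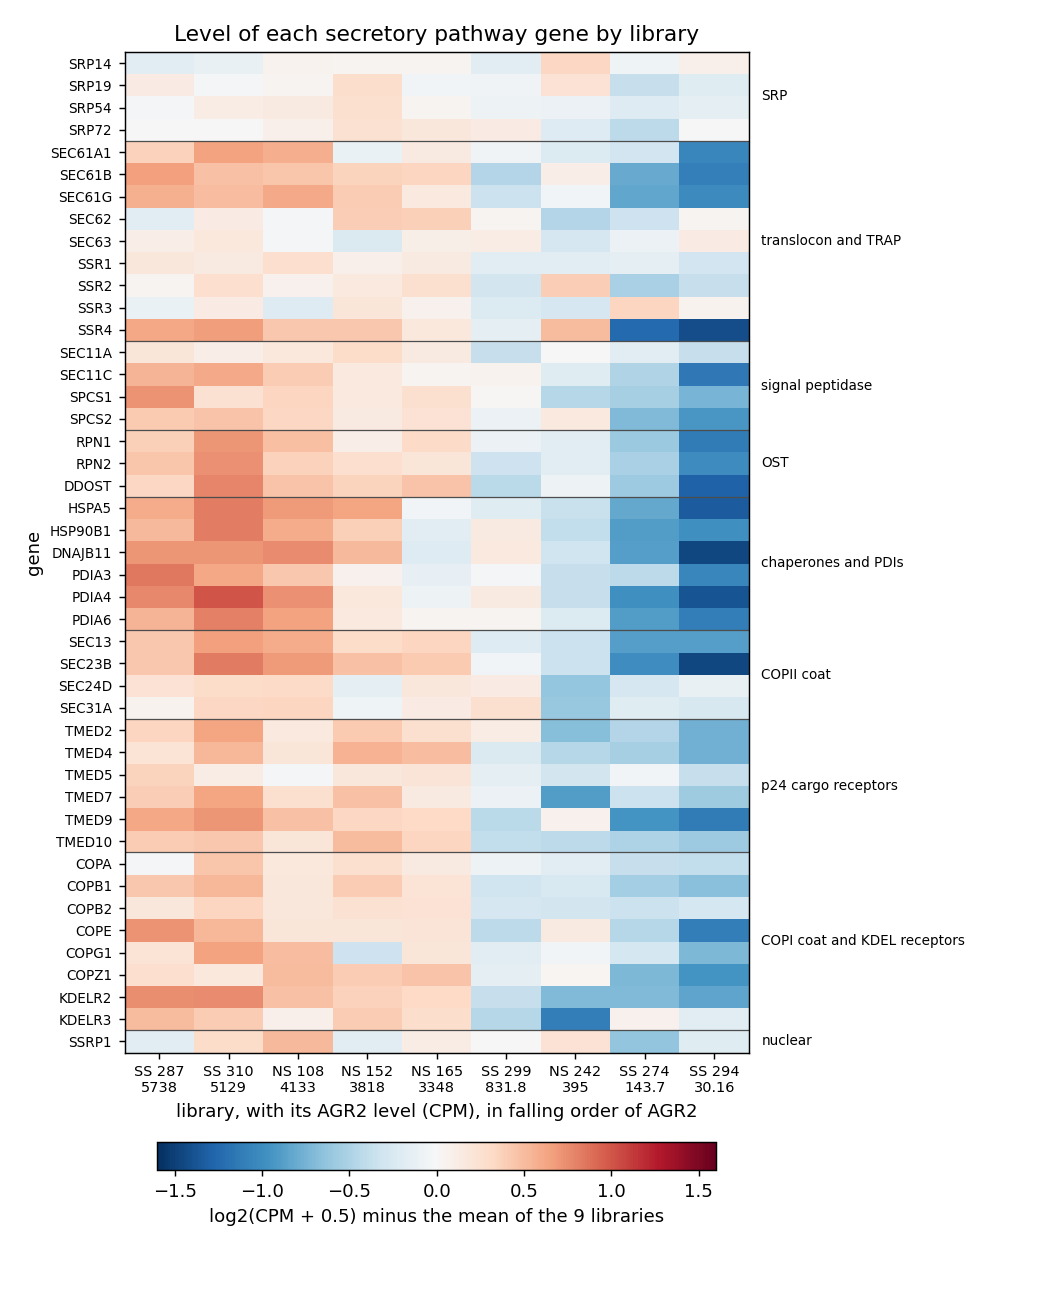
Level of each of the 45 genes in each library as log2(CPM + 0.5) minus the mean of the 9 libraries (colour), with genes grouped by role and libraries in falling order of AGR2 (its CPM under each name). Chaperones, oligosaccharyltransferase subunits and SEC23B run from red at the left to blue in SS 274 and SS 294, while the SRP genes, SEC62, SEC63 and SSR3 stay pale throughout.

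The between-steer SD of log2(CPM + 0.5) had a median of 0.51 over the 45 genes and of 0.50 over all genes tested. Within the 45 the spread was uneven. By role it was smallest for the SRP genes, with a median SD of 0.18, and largest for the chaperones and disulfide isomerases, with a median of 0.70. Roles were also mixed within, with SDs of 0.17 to 0.80 among the translocon and TRAP genes. Differences in spread between roles were not tested. The ratio of the highest to the lowest steer was below 2 for 15 genes and above 4 for 6. It was 1.36 for SEC63, which helps post-translational import, and 5.26 for PDIA4, a disulfide isomerase.

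The genes also moved together to different degrees. Across the 9 libraries the 15 pairs of chaperone and isomerase genes had a median Pearson r of 0.967, and the 3 oligosaccharyltransferase pairs lay between 0.968 and 0.982. The 36 pairs of translocon and TRAP genes had a median of 0.29 and reached from -0.44 to 0.981. All 990 pairs had a median of 0.757. These values describe libraries that share depth and tissue makeup, and are given without a test.

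Whether SS and NS differed in this machinery was asked with limma on log2(CPM + 0.5) over all 15410 genes. No gene among the 45 was called, which required an adjusted p below 0.05 together with a log2 difference of more than 1 either way, and the share called over all genes was 0%. On the recovered reads edgeR called 0 of the 45, against 0% of all genes, and DESeq2 0 of the 45, against 0.123% (19 genes). At an unadjusted p below 0.05 there was 1 of the 45 genes (COPZ1, lower in SS), against 3.96% of all genes in either direction and 3.6% lower in SS. Which gene this was depended on the scaling, since under TMM, under median-of-ratios scaling and in DESeq2 it was SEC63, higher in SS, and in edgeR there was none. The groups overlapped in all 45, where 2.26% of all genes had groups that did not overlap, 2.1% with SS lower. In 39 of the 45 genes the mean log2 level was lower in SS, with a median difference of -0.21. Of all genes 64.8% were lower in SS, with a median of -0.13. Rescaling the libraries by median-of-ratios size factors moved these medians to -0.06 for the 45 genes and 0.01 for all genes. The number of the 45 lower in SS was then 31, against 48.8% of all genes, and it was 29 in edgeR and 26 in DESeq2, against 47% and 44.3%.

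The intervals show how much these samples could resolve. For 26 of the 45 genes the 95% interval of the SS minus NS difference lay within 1 log2 unit of 0. For the other 19 it reached below -1, and for none did it reach above 1. Without SS 274 and SS 294, a comparison chosen after the data had been seen, the median difference of the 45 genes was 0.08 and 27 of them lay above 0 and 18 below, against 61% of all genes below 0. None of the 45 then had an unadjusted p below 0.05 by limma, against 2.16% of all genes. With log2 AGR2 in the fit, 22 lay above 0 and 23 below, with a median of -5.9e-05 against -0.11 over all genes.

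**Figure D2:**
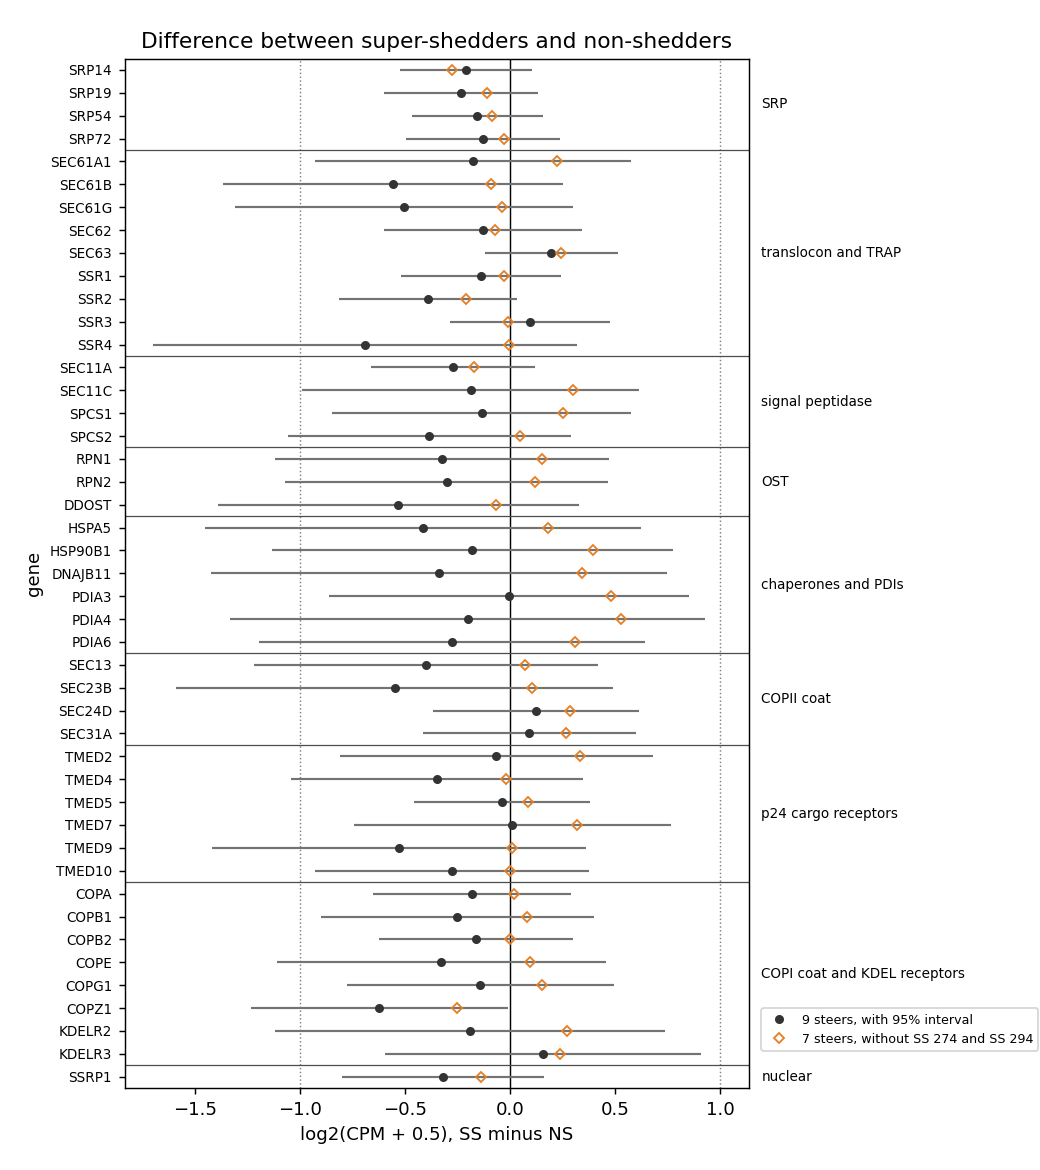
SS minus NS difference of each gene on the log2(CPM + 0.5) scale, with the limma 95% interval over 9 steers (dots and lines) and the value without SS 274 and SS 294 (open diamonds). All intervals but that of COPZ1 include 0, and most diamonds lie to the right of their dots.

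As a role, the SRP genes had the smallest spread over the 9 steers. SRP54, the subunit that binds the signal peptide, was at 113, 122, 105 and 95.3 CPM in the NS and at 88.1, 99.7, 92.5, 95.9 and 111 CPM in the SS. Its SS minus NS difference was -0.16 ± 0.14 (log2, SE). SRP19, which helps SRP54 join the SRP RNA, was at 37.5, 44.2, 35.2 and 42.4 CPM in the NS and at 27.9, 39.6, 31.5, 34.8 and 35.7 CPM in the SS. SRP72, another SRP protein, was at 133, 148, 142 and 109 CPM in the NS and at 94.2, 125, 125, 138 and 127 CPM in the SS, with SS 274 lowest. SRP14, of the Alu domain that slows translation, was at 55.1 to 67.4 CPM in the NS and 47.2 to 56.6 CPM in the SS. SRP14 was the only one of the 45 with an exact permutation p below 0.05 (p = 0.0397, two-sided, where 0.0159 is the smallest possible and 5.65% of all genes fell below 0.05). Its limma p was 0.165 before adjustment and 0.928 after. None of the 4 SRP genes had a slope on AGR2 that passed the test, and the slopes ran from -0.02 to 0.04. SRP54 nevertheless had r = 0.768 with AGR2 (exact permutation p = 0.0143) and rho = 0.750 (p = 0.0255) over the 9 steers, with r = 0.660 (p = 0.124) without SS 274 and SS 294.

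The translocon and TRAP genes split. SEC61G, a small subunit of the channel, was at 67.1, 58.2, 48.7 and 42.3 CPM in the NS and at 24.4, 64.96, 21.4, 34.4 and 62.1 CPM in the SS. SSR4, the delta subunit of TRAP, was at 170.5, 169.5, 142 and 179 CPM in the NS and at 52.7, 193, 46.7, 114 and 200 CPM in the SS. In SSR4 only SS 274, SS 294 and SS 299 lay below the NS, and SS 287 and SS 310 lay above them. Its mean difference of -0.69 ± 0.45 (SE, 95% interval -1.70 to 0.32) was the most negative of the 45. SEC63 went the other way, at 151, 130.5, 164 and 127 CPM in the NS and at 143, 165, 169, 167 and 173 CPM in the SS, a difference of 0.20 ± 0.14 with a 95% interval of -0.12 to 0.51. SEC63 was the most positive of the 45, and 4 of the 5 SS lay above all NS. Its p before adjustment was 0.194 in limma, but 0.0469 under TMM, 0.0387 under median-of-ratios scaling, 0.0649 in edgeR and 0.0171 in DESeq2, and the adjusted p was 0.791 or higher in each. The TRAP subunits SSR1, SSR2 and SSR3 had differences of -0.14, -0.39 and 0.09. SSR3 was highest in SS 274, at 174 CPM, where SSR4 was at 52.7 CPM, and the TRAP subunits therefore stood in a different ratio to each other from steer to steer.

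In the signal peptidase, SEC11C is a catalytic subunit and SPCS1 and SPCS2 are accessory ones. SEC11C was at 53.2, 44.6, 41.2 and 35.0 CPM in the NS and at 28.4, 58.4, 17.8, 41.7 and 61.3 CPM in the SS. SPCS2 was at 114, 100.0, 107 and 101 CPM in the NS and at 55.4, 121, 47.4, 85.0 and 125 CPM in the SS. SPCS1 was at 45.1, 39.4, 42.2 and 25.5 CPM in the NS and at 24.2, 58.2, 20.9, 35.9 and 41.8 CPM in the SS. All of these were lowest in SS 294, next lowest in SS 274, and highest in SS 287 or SS 310. SEC11A, the other catalytic subunit, kept to 49.1 to 60.2 CPM in the NS and 37.8 to 56.0 CPM in the SS.

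The oligosaccharyltransferase subunits RPN1, RPN2 and DDOST, which hold the complex that attaches N-glycans, followed each other closely. RPN1 was at 256, 198, 228 and 164 CPM in the NS and at 121, 239, 84.2, 173 and 299.6 CPM in the SS. RPN2 was at 367, 340.3, 325 and 252 CPM in the NS and at 197, 386, 141, 226 and 470.1 CPM in the SS. DDOST was at 123, 116, 124 and 85.2 CPM in the NS and at 60.2, 113, 36.4, 66.7 and 156 CPM in the SS. SS 310 was the highest and SS 294 the lowest steer in each, so the SS held both ends of the range and the NS lay between them. The differences of -0.33, -0.30 and -0.53 had SEs of 0.35, 0.34 and 0.38.

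The chaperones and disulfide isomerases, with the largest median SD of the roles, included genes with wide ranges. HSPA5, the ER Hsp70 that binds unfolded chains, was at 1061, 1021, 637 and 516 CPM in the NS and at 375, 995, 260.5, 578 and 1166 CPM in the SS. HSP90B1, the ER Hsp90, was at 1675, 1452, 981 and 847 CPM in the NS and at 599.9, 1588, 562, 1232 and 1955 CPM in the SS. Both were highest in SS 310 and lowest in SS 294. The HSPA5 difference was -0.41 ± 0.46 (95% interval -1.45 to 0.62), smaller than its SE.

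PDIA3, the isomerase that works with calnexin and calreticulin, was at 789, 614, 529.9 and 453 CPM in the NS and at 436, 1049, 284, 574 and 898 CPM in the SS. PDIA6 was at 300.0, 213, 197 and 165 CPM in the NS and at 103, 279.7, 89.2, 197 and 335 CPM in the SS. DNAJB11, the J-protein partner of HSPA5, ran from 19.5 CPM in SS 294 to 92.0 CPM in NS 108, and PDIA4 from 110.0 CPM in SS 294 to 578 CPM in SS 310. All 6 genes of this group had a lower mean log2 level in SS, by 0.00 to 0.41 log2 units, and none passed the test. In mean CPM, PDIA3 (596 in NS, 648 in SS) and PDIA4 (325 in NS, 329 in SS) were higher in SS.

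COPII builds the coat of vesicles that leave the ER. SEC23B, of its inner layer, was at 170.1, 147, 142 and 83.3 CPM in the NS and at 53.0, 143, 38.4, 103 and 189.9 CPM in the SS. SEC24D, the inner-layer subunit that picks cargo, was at 188, 138, 174 and 99.6 CPM in the NS and at 127, 178, 141, 167 and 188 CPM in the SS. The pair thus behaved unalike in SS 294, which had the lowest SEC23B of all steers but more SEC24D than NS 152 and NS 242. The outer-layer genes differed in the same manner, with SEC13 from 34.0 to 100.2 CPM and lowest in SS 274 and SS 294, and SEC31A from 198 to 381 CPM and lowest in NS 242. Their SS minus NS differences were -0.40 ± 0.37 and 0.09 ± 0.23.

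Of the p24 proteins, which select cargo for both coats, TMED7 and TMED9 were the extremes. TMED9 was at 142, 129, 128 and 107 CPM in the NS and at 52.5, 158, 47.0, 76.0 and 168 CPM in the SS. TMED7 was at 222, 258, 205 and 99.3 CPM in the NS and at 146, 243, 125, 174 and 288 CPM in the SS. NS 242 was the lowest of all steers for TMED7 and SS 294 for TMED9. The differences were 0.01 ± 0.34 for TMED7 and -0.53 ± 0.40 for TMED9, and those of the other 4 lay between -0.35 and -0.04.

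COPI returns escaped proteins to the ER. COPZ1, its zeta subunit, was at 113, 106, 109 and 81.3 CPM in the NS and at 48.4, 95.9, 40.8, 71.8 and 89.4 CPM in the SS. The 3 highest values were those of NS 108, 165 and 152, and the 2 lowest those of SS 294 and SS 274. Its difference of -0.62 ± 0.27 (95% interval -1.24 to -0.01) had a limma p of 0.0466 before adjustment, an adjusted p of 0.928 and an exact permutation p of 0.0635. Without SS 274 and SS 294 the difference was -0.25. Under TMM, under median-of-ratios scaling, in edgeR and in DESeq2 the p of COPZ1 before adjustment lay between 0.098 and 0.157. With array quality weights it was 0.00908, and with AGR2, JCHAIN or both in the fit 0.0171, 0.0316 and 0.0158. On leaving out 1 steer it lay between 0.0191 (without SS 287) and 0.104 (without NS 108), and the adjusted p was 0.595 or higher in all these fits. COPA, COPB1, COPB2, COPE and COPG1 differed by -0.33 to -0.14, each by no more than its SE.

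The KDEL receptors bind ER residents that reach the Golgi and hand them to COPI. KDELR2 was at 179.7, 168, 162 and 79.4 CPM in the NS and at 79.3, 219, 72.1, 100.5 and 220.4 CPM in the SS. KDELR3 was at 89.0, 111, 102 and 38.6 CPM in the NS and at 88.3, 119, 73.8, 61.1 and 111 CPM in the SS. NS 242 was the lowest steer for KDELR3 by a wide margin, whereas for KDELR2 it was level with SS 274 and SS 294. The differences were -0.19 ± 0.41 and 0.16 ± 0.33. SSRP1, the nuclear gene, was at 157, 97.3, 118 and 129 CPM in the NS and at 70.4, 95.9, 95.4, 110.0 and 134 CPM in the SS, with a difference of -0.32 ± 0.21.

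The relation of each gene to AGR2 was then fitted over the 9 steers as the slope of its log2(CPM + 0.5) on that of AGR2, with limma over the 15409 other genes. Of the 45 genes, 30 rose with AGR2 at an adjusted p below 0.05 and none fell, against 17.3% rising and 10.8% falling over all genes. The median slope was 0.17 for the 45 genes and 0.01 for all genes. With the SS or NS group in the same fit 29 rose, against 15% of all genes. The steer SS 294 anchors the low end, and without it 26 rose and none fell, against 9.78% rising and 7.82% falling over all genes. Mean log2 levels of marker lists also went with AGR2 over the 9 steers. Their r was 0.967 for colonic epithelium, -0.888 for fibroblasts, -0.105 for smooth muscle and 0.387 for leukocytes. The part of these cell types in the slopes was not tested.

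By role, none of the 4 SRP genes rose, nor did SSRP1. Of the translocon and TRAP genes 4 of 9 rose (SEC61A1, SEC61B, SEC61G and SSR4), and SEC62, SEC63, SSR1, SSR2 and SSR3 did not pass. Of the signal peptidase genes 3 of 4 rose, with SEC11A not passing. All 3 oligosaccharyltransferase genes and all 6 chaperones and isomerases rose. SEC13 and SEC23B rose among the 4 COPII genes, 5 of 6 p24 genes rose (not TMED5), and 7 of 8 COPI and KDEL receptor genes rose (not KDELR3).

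SEC23B had the steepest slope and the smallest adjusted p of the 45. Its slope was 0.29 ± 0.03 (SE), which is a 1.22-fold higher CPM for each doubling of AGR2, with an adjusted p of 7.7e-05. Over the 9 steers Pearson's r was 0.984 (exact permutation p = 8.5e-05) and Spearman's rho 0.900 (p = 0.00203). Without SS 294 and SS 274, the steers farthest from the median of AGR2, r was 0.937 (exact permutation p = 0.00615). This was one of 90 relations computed between the 45 genes and the reference rows.

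HSPA5 had a slope of 0.27 ± 0.03 (adjusted p = 0.000492), with r = 0.961 (exact permutation p = 3e-05), rho = 0.900 (p = 0.00203) and r = 0.870 (p = 0.00218) over the 7 steers. In HSPA5 the order of the steers departed from that of AGR2 at SS 287, which had the most AGR2 but less HSPA5 than SS 310, NS 108 and NS 152. The isomerases PDIA4, PDIA6 and PDIA3 had slopes of 0.28, 0.23 and 0.20, DNAJB11 one of 0.27 and HSP90B1 one of 0.22. In the glycosylation complex the slopes of DDOST, RPN1 and RPN2 were 0.23, 0.21 and 0.20. SSR4 had 0.26 ± 0.05, but over the 7 steers its slope was 0.08 and its r 0.423 (exact permutation p = 0.343).

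**Figure D3:**
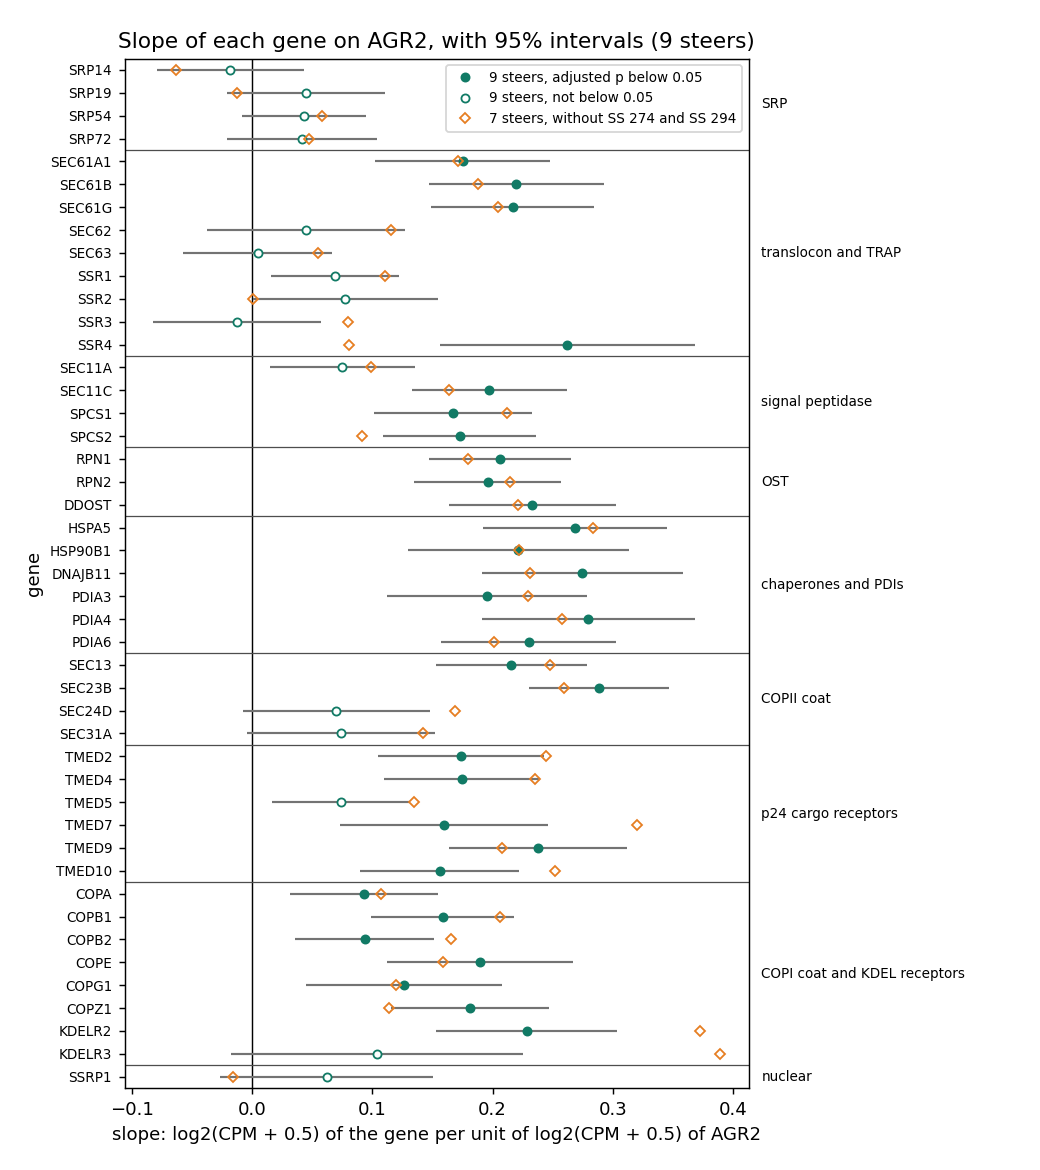
Slope of each gene's log2(CPM + 0.5) on that of AGR2, with the limma 95% interval over 9 steers (filled where the adjusted p was below 0.05), and the slope over the 7 steers without SS 274 and SS 294 (open diamonds). Filled dots lie between 0.09 and 0.29, the SRP genes sit near 0, and the diamonds of KDELR2 and KDELR3 lie farthest right.

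Because SS 274 and SS 294 could carry these slopes, the fit was repeated without them, an alternative chosen after the data had been seen. Of the 45 genes 10 then rose and none fell, against 6.39% rising and 4.97% falling over all genes. They were HSPA5, SEC13, SEC23B, TMED2, TMED4, TMED7, TMED10, COPB1, KDELR2 and KDELR3, 9 of them among the 30 above. Of the 30 called over 9 steers, 14 had a higher slope over the 7 and 16 a lower one, which was under 50% of its former size in 1 (SSR4). The median slope of the 45 was 0.17 over the 7 steers, and 42 of the 45 lay above 0, against 38.1% of all genes. An unadjusted limma p below 0.05 was found for 28, against 31.7% of all genes in either direction, and an exact permutation p of r below 0.05 for 25, against 26.8%.

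The KDEL receptors KDELR2 and KDELR3 and the p24 protein TMED7 had the steepest slopes over those 7 steers, while the COPI genes COPA, COPZ1, COPG1 and COPE lay between 0.11 and 0.16 and COPB2 and COPB1 had 0.17 and 0.21. KDELR2 had a slope of 0.37 ± 0.05 (adjusted p = 0.00471) and r = 0.989 (exact permutation p = 0.000397, n = 7), KDELR3 one of 0.39 ± 0.05 (adjusted p = 0.00557) and r = 0.974 (p = 0.00357), and TMED7 one of 0.32 ± 0.06 (adjusted p = 0.0160). Among these 7 steers NS 242 and SS 299, at 395 and 832 CPM of AGR2, lay apart from the rest at 3348 to 5738 CPM. NS 242 and SS 299 also held the least KDELR2, KDELR3 and TMED7 of the 7, and their part in these slopes was not tested. Over all 9 steers KDELR3 had a slope of 0.10 ± 0.05 with an adjusted p of 0.183 and r = 0.539 (exact permutation p = 0.129) but rho = 0.783 (p = 0.0172), while SS 274 and SS 294 held 88.3 and 73.8 CPM of KDELR3 beside the least AGR2. Its slope moved more than that of any other of the 45 when these steers were left out. SS 274 and SS 294 also had the most fibroblast marker RNA, whose part in this was not tested.

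**Figure D4:**
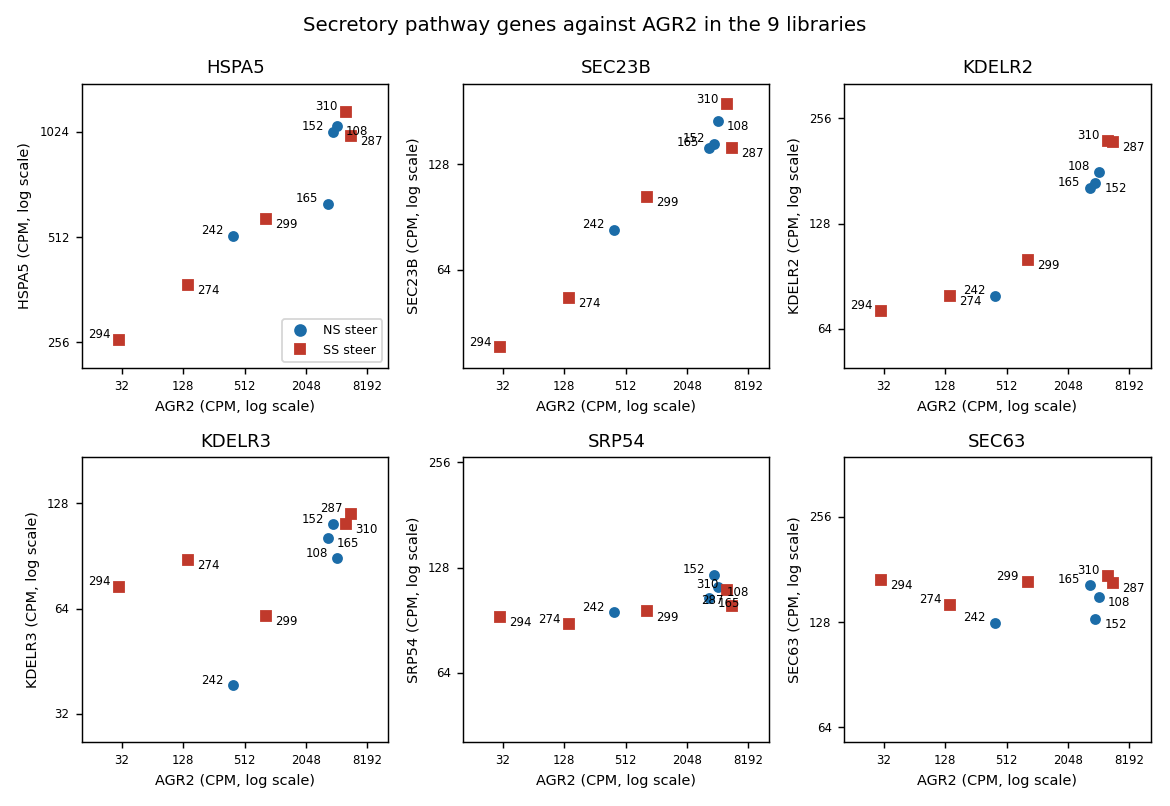
CPM of 6 genes against the CPM of AGR2 in the 9 libraries, on log2-spaced axes, with NS as circles, SS as squares and the steer number beside each point. HSPA5, SEC23B and KDELR2 are lowest in SS 294 and highest in SS 310, KDELR3 is lowest in NS 242 and not in the steers with least AGR2, and SRP54 and SEC63 span the narrowest ranges.

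For KDELR2 and KDELR3, close relatives whose reads could be shared in counting, the log2 ratio within a library was also taken, a choice made after the values were seen. KDELR2 exceeded KDELR3 by 0.59 to 1.03 log2 units in all 4 NS and by 0.71 to 0.98 in SS 287, SS 299 and SS 310, but lay 0.16 and 0.03 below it in SS 274 and SS 294. These are ratios of CPM with no correction for length. For SEC11C over SEC11A the log2 ratio ran from -1.07 in SS 294 to 0.21 in SS 310. It was related to AGR2 with r = 0.790 (exact permutation p = 0.0107) and rho = 0.783 (p = 0.0172). Over the 7 steers, which cover a narrower range of AGR2, r was 0.332 (exact permutation p = 0.432). The slopes on AGR2 over the 7 steers were 0.164 for SEC11C and 0.099 for SEC11A. The part of SS 274 and SS 294 in the relation of the ratio to AGR2 was not tested. The pair of SEC11C and SEC11A was also chosen after the values were seen, so these p-values give it no independent support. With JCHAIN, where SS 274 and SS 294 form their own cluster, the ratio had r = 0.735 (exact permutation p = 0.0395, not adjusted) over the other 7 steers.

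The rest of the pathway was followed in 70 other genes, listed by function with earlier results of these data known. In SS against NS 0 of the 70 were called by limma and 0 had an unadjusted p below 0.05, against 0% and 3.96% of all genes. On AGR2 48 of the 70 rose and 1 fell, against 17.3% rising and 10.8% falling over all genes, with a median slope of 0.13 against 0.01. The counts were 6 of 14 for other targeting and insertion genes, 12 of 13 for other glycosylation and lectin folding genes, 12 of 14 for other folding genes, 7 of 10 for ER stress and degradation genes and 11 of 19 for other vesicle transport genes. The targeting genes had the lowest share of these lists.

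Among the other targeting genes, LRRC59, a ribosome-binding ER protein, had a slope of 0.27 ± 0.03 (adjusted p = 0.000297), and SRPRB, which anchors the SRP receptor, and SERP1, a translocon-associated protein, had slopes of 0.20 each. SRPRB was at 0.000955 and SERP1 at 0.00125 after adjustment by limma. Of the glycosylation genes, OSTC and DAD1, which are oligosaccharyltransferase subunits, had slopes of 0.20 and 0.19, and MLEC, an ER lectin, one of 0.24. In folding, MANF, an ER stress-induced chaperone cofactor, had 0.35 ± 0.04 (adjusted p = 0.000213), P4HB, the prototype disulfide isomerase, 0.26 and DNAJC3, a partner of HSPA5, 0.23.

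The ER stress and degradation genes with the smallest p were VIMP (selenoprotein S), XBP1, the transcription factor that expands the ER in secretory cells, and EDEM3, a mannosidase of ER-associated degradation, with slopes of 0.28, 0.26 and 0.30. XBP1 also stands in the plasma cell marker list. Among vesicle genes ARF1, the GTPase that recruits COPI, had 0.19, CTAGE5, which helps load collagen and other large cargo, 0.16 and the SNARE protein YKT6 0.20. The gene that fell was TMX4, a membrane-bound thioredoxin family member, with a slope of -0.14 ± 0.04 (adjusted p = 0.0179), named here after its value was seen.

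On JCHAIN, 24 of the 45 genes rose and none fell (limma, adjusted p below 0.05), against 11.7% rising and 6.49% falling over all genes. All 24 were among the 30 that rose with AGR2, and 6 rose with AGR2 alone (SEC61A1, TMED7, TMED10, COPA, COPB2 and COPG1). Because SS 274 and SS 294 formed a separate cluster on JCHAIN, no correlation of the 45 genes with JCHAIN over all 9 steers is given. Without SS 294 only 3 genes rose (SSR4, PDIA6 and SEC23B) and none fell, against 3.54% rising and 4.02% falling over all genes. Without both steers 0 of the 45 rose or fell by limma, against 0.451% rising and 2.18% falling over all genes, and 7 of the 45 were at an unadjusted p below 0.05, against 23.5% of all genes in either direction. The slopes of the 45 had a median of 0.19 over those 7 steers and of 0.16 over all 9, and 38 of the 45 lay above 0 over the 7, against 37.2% of all genes, whose median slope was -0.11. Single genes moved in both directions. Of the 24 called over 9 steers, 13 had a higher slope over the 7 and 11 a lower one, and in 8 it was under 50% of its former size (SSR4, COPZ1, SEC61B, SPCS2, TMED9, DDOST, COPE and SEC61G). The slope of SSR4 went from 0.29 to -0.07 and that of SEC61B from 0.21 to 0.02. Over the 8 steers without SS 310 there were 15 called, against 6.98% of all genes rising. Under median-of-ratios scaling and in edgeR there were 15 each, against 9.23% and 6.78%.

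Within the cluster of 7 steers, r with JCHAIN differed from gene to gene. The vesicle genes TMED2, SEC24D, SEC31A and TMED7 had r = 0.818, 0.782, 0.753 and 0.750 and the signal peptidase gene SPCS1 r = 0.749, with exact permutation p between 0.0540 and 0.0792. SEC11C had r = 0.641 (exact permutation p = 0.111) and HSPA5 r = 0.446, while SPCS2 had 0.122 and SSR4 -0.187. An exact permutation p below 0.05 was found for 2 of the 45, SEC63 with r = 0.777 (p = 0.0276) and SRP14 with r = -0.989 (p = 0.000794), a lower share than the 15.2% of all genes. TMED2, SEC31A and SRP14 were named after their values were seen, and NS 242, which had the most SRP14 (67.4 CPM), had the least JCHAIN of the 7. Neither SEC63 nor SRP14 passed the adjusted test across all genes in those steers.

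**Figure D5:**
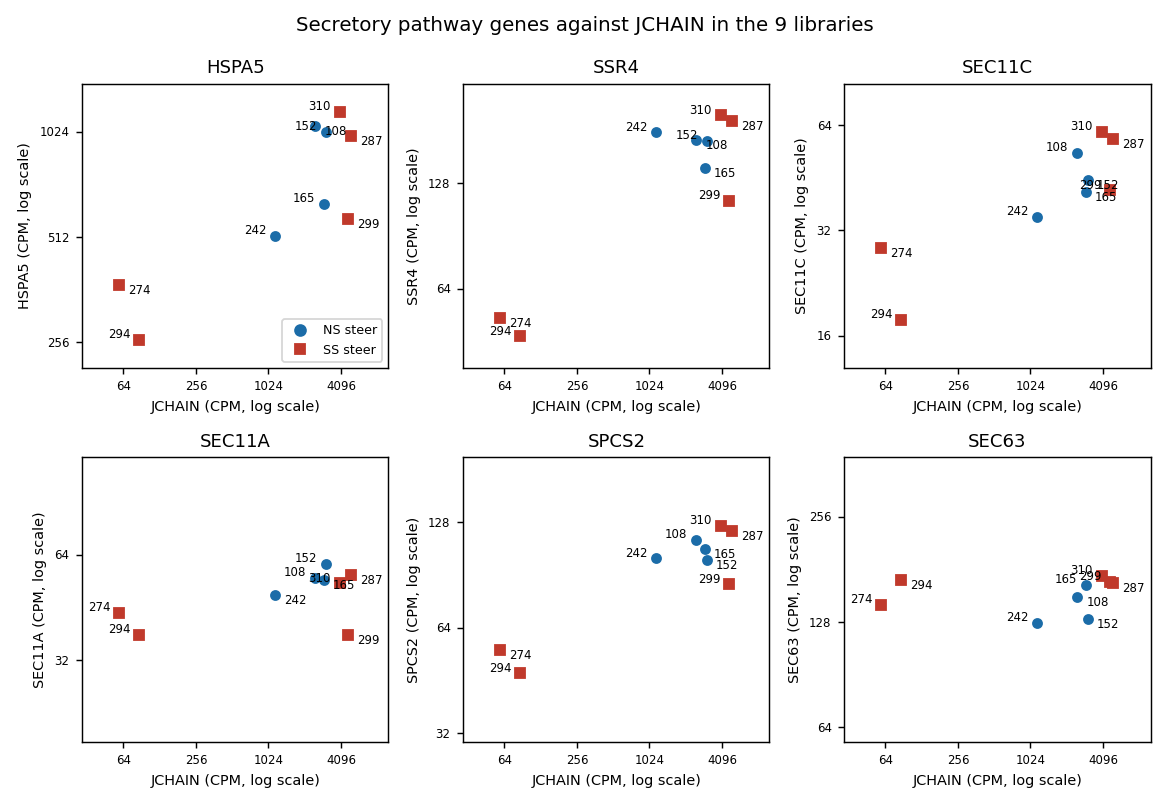
CPM of 6 genes against the CPM of JCHAIN in the 9 libraries, on log2-spaced axes, with NS as circles and SS as squares. SS 274 and SS 294 lie apart at the left in every panel with JCHAIN at 59.3 and 86.9 CPM, and within the other 7 steers SSR4 and SPCS2 have r of -0.187 and 0.122.

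AGR2 and JCHAIN were both lowest in SS 274 and SS 294. Over the other 7 steers their r was 0.588 (exact permutation p = 0.159). Over all 9 steers r was 0.884 and rho 0.767, so a fit that holds both rows separates their slopes poorly. With both in the same limma fit 0 of the 45 genes had a called slope on AGR2, where 1.95% of all genes rose, but 29 of the 45 had an unadjusted p below 0.05, against 19.1% of all genes in either direction, and 40 a slope above 0, against 44%. On JCHAIN in that fit 0 of the 45 were called, where 0% of all genes rose, and 1 had an unadjusted p below 0.05, against 7.32% of all genes in either direction. The gene nearest to the threshold on AGR2 was SEC23B, with an adjusted p of 0.0546, followed by DDOST at 0.0595. The difference between the slopes on AGR2 and on JCHAIN was itself not tested.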

How the data were processed

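Whole rectal tissue RNA (stranded, rRNA-depleted libraries) was sequenced from 9 steers, 4 NS and 5 SS, and samples were grouped by their GEO labels. The authors deposited CPM per Ensembl gene. The submitters' processing notes name TopHat2, HTSeq, edgeR and the UMD3.1 build, while how each was used for counting and scaling is not stated there. 100% of values were whole multiples of 1 read within 0.01 reads, so reads were recovered from the deposited CPM for the count tests. The members, lists and tests were chosen with earlier results of these data known. The 15410 genes that reached 0.5 CPM in 4 or more steers were tested with limma 3.58.1 (eBayes with an intensity trend, log2(CPM + 0.5), R 4.3.3) and Benjamini-Hochberg adjustment over all genes, and fold changes are on that scale, which understates changes of low genes. Exact permutation tests were two-sided, over 126 divisions of the steers or all pairings. Alternatives were edgeR 4.0.16, DESeq2 1.42.0, other pseudocounts, filters and scalings, array weights, covariates and omission of each steer. Values per steer are given for the members with the highest and lowest SS minus NS difference and the largest t on AGR2 and JCHAIN in each role, and for HSPA5, HSP90B1, KDELR2, KDELR3 and SSRP1. For the lists of other pathway genes, slopes are given for up to 3 genes of each list with the smallest p. Nothing in the labels gives a batch. Correlations were computed with scipy 1.17.1 under Python 3.11.15 (pandas 2.3.3, numpy 2.4.6) and figures drawn with matplotlib 3.10.9.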

Additional observations from a re-analysis of the deposited data

Results flagged for a closer look

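Within each group of 4 NS or 5 SS, a steer was marked where its gap to the nearest other steer took up more of the group's range on the log2 scale than Dixon's 95% critical value. Of 94 groups of values examined (the 45 genes, AGR2 and JCHAIN), 7 were marked, and chance marks about 1 in 20. NS 242 stood apart in 5. It was high for SRP14, at 67.4 CPM against 55.1 to 55.8 CPM in the other NS. It was low for COPB2 (180.3 against 251 to 261 CPM), for COPE (61.9 against 64.2 to 64.6 CPM, a gap of little size), for KDELR2 (79.4 against 162 to 179.7 CPM) and for AGR2 (395 against 3348 to 4133 CPM). SS 274 stood apart in the other 2, low for SRP72 (94.2 against 125 to 138 CPM) and for SEC63 (143 against 165 to 173 CPM). NS 242 also had the most leukocyte marker RNA, and SS 274 the fewest reads. Their part in these values was not tested.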

How the results depend on the processing

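No paired analysis was possible because the steer numbers are not shared between NS and SS. Omission of SS 274 with SS 294 and the ratios of relatives were chosen after the data had been seen. Unless a value or the alternative's construction shows it, the cause was not tested.

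For SS against NS, DESeq2 called 19 genes and array quality weights 2, none of them among the 45. The number of the 45 at an unadjusted p below 0.05 was 0 under edgeR and 0 without SS 274 and SS 294, when 326 genes passed that level. Leaving out 1 steer at a time gave 0 to 1 genes called, 316 to 1177 genes and 0 to 3 of the 45 at an unadjusted p below 0.05. Over 24 genes and 528 values, 457 kept their side and 71 changed sign, in all cases without a call. Without SS 274 and SS 294 the log2 differences turned to 0.39 for HSP90B1, 0.18 for HSPA5, 0.27 for KDELR2, 0.48 for PDIA3, 0.31 for PDIA6, 0.15 for RPN1, 0.12 for RPN2, 0.30 for SEC11C, 0.10 for SEC23B, 0.25 for SPCS1, 0.045 for SPCS2 and 0.0059 for TMED9. With AGR2 as a covariate they were 0.2317 for HSP90B1, 0.060 for HSPA5, 0.2305 for KDELR2, 0.3807 for PDIA3, 0.1397 for PDIA6, 0.0364 for RPN1, 0.0422 for RPN2, 0.1744 for SEC11C and 0.1764 for SPCS1, and with JCHAIN added 0.2293, 0.0604, 0.2329, 0.3813, 0.1375, 0.0362, 0.0436, 0.1738 and 0.176 in that order. With JCHAIN alone they were 0.1543 for HSP90B1, 0.0953 for KDELR2, 0.2746 for PDIA3, 0.0589 for PDIA6, 0.0877 for SEC11C and 0.1012 for SPCS1. DESeq2 gave 0.0561 for HSP90B1, 0.0396 for KDELR2, 0.2616 for PDIA3, 0.00176 for PDIA6, 0.0660 for SEC11C, 0.0713 for SPCS1 and 0.00902 for SRP72. edgeR gave 0.0354 for HSP90B1, 0.0184 for KDELR2, 0.2402 for PDIA3, 0.0452 for SEC11C and 0.0486 for SPCS1. Array weights gave 0.1254 for HSP90B1, -0.2208 for KDELR3, 0.1475 for PDIA3, 0.00176 for SEC11C and -0.0705 for TMED7. TMM scaling gave 0.1234 for PDIA3, and median-of-ratios scaling 0.1476 for PDIA3, 0.0143 for SPCS1 and 0.0198 for SRP72. Over the omissions of 1 steer PDIA3 ran from -0.216 to 0.2555, SEC24D from -0.058 to 0.2471, TMED7 from -0.2872 to 0.17, KDELR3 from -0.1864 to 0.3192, HSP90B1 from -0.4037 to 0.046, SEC11C from -0.3625 to 0.0773 and SPCS1 from -0.3278 to 0.0351.

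For the slope on AGR2, 26 to 34 of the 45 were called on leaving out 1 steer (2684 to 5588 genes). With JCHAIN in the fit 0 of the 45 and 319 genes were called, and without SS 274 and SS 294 10 of the 45 and 1710 genes. Of the genes called, 61.6% rose, but 49.2% under edgeR and 94% with JCHAIN in the fit. Of 900 values for single genes 805 kept their direction and side of the threshold, 70 lost their call, 8 gained one and 17 changed sign. SEC63 was at -0.00313 under TMM, -0.0011 under array weights, -0.00658 under edgeR, -0.00845 under median-of-ratios scaling and -0.0138 with JCHAIN, and at -0.00316 to 0.038 on leaving out 1 steer. SSR3 ran from -0.021 to 0.00846 over those omissions. With JCHAIN in the fit the slopes were -0.011 for SRP19, -0.0201 for SRP72, 0.0942 for SSR3 and -0.027 for SSRP1, and without SS 274 and SS 294 -0.0125 for SRP19, 0.0796 for SSR3 and -0.0162 for SSRP1.

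For the slope on JCHAIN, 3 to 27 of the 45 were called on leaving out 1 steer (1153 to 3636 genes), the 3 without SS 294. edgeR called 15 of the 45, median-of-ratios scaling 15, and the fits with AGR2 and without SS 274 and SS 294 called 0. Genes called numbered 0 with AGR2 in the fit, 1832 with the group and 396 without SS 274 and SS 294, and with AGR2 the median slope of the 45 was 0.000963. Of the genes called, 64.2% rose, but 48.6% under median-of-ratios scaling, 51.5% under TMM, 42.8% under edgeR, 46.8% without SS 294, 77.1% without SS 274 and 17.2% without both. Of 900 values 715 kept their direction and side of the threshold, 33 changed sign, 156 lost their call (some of them with a change of sign) and 8 gained one. SEC63 was at -0.00934 under TMM, -0.0114 under edgeR, -0.0149 under median-of-ratios scaling and -0.0011 to 0.034 on leaving out 1 steer. With AGR2 in the fit the slopes were -0.0303 for COPB1, -0.0476 for COPB2, -0.0381 for COPE, -0.0382 for COPG1, -0.0707 for DDOST, -0.0167 for HSPA5, -0.0803 for KDELR2, -0.2441 for KDELR3, -0.0218 for PDIA3, -0.0496 for RPN2, -0.0721 for SEC11A, -0.00693 for SEC24D, -0.0452 for SEC61A1, -0.00378 for SEC61B, 0.00791 for SRP14, -0.00671 for SRP54, -0.0551 for SSR1, -0.0753 for TMED10, -0.003005 for TMED2, -0.0465 for TMED4, -0.06999 for TMED5 and -0.0906 for TMED7. Without SS 274 and SS 294 they were -0.0157 for COPZ1, -0.0351 for SEC11A, -0.0907 for SRP19, -0.2046 for SSR2, 0.0864 for SSR3, -0.0739 for SSR4 and -0.1627 for SSRP1.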
